A study of Homo sapiens with 4 samples.

Results

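The GADD45 family was read by 9 of the 54613 probe sets tested, which stand for 4 of 19775 genes. They are every probe set whose single symbol in the platform annotation is GADD45A (1 probe set), GADD45B (4), GADD45G (1) or GADD45GIP1 (3), and 0 probe sets with several symbols held one of these names. The members were chosen with their levels and their induced minus control differences in view, and selected on those values, so the values below describe these arrays and carry no test.

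GADD45A, GADD45B and GADD45G are small, acidic, closely related stress sensors that have no known enzyme activity and act by binding other proteins. They bind the kinase MTK1 (MAP3K4), which feeds the p38 and JNK pathways, the cyclin B1 and CDK1 complex that drives entry into mitosis, and the replication clamp PCNA, and they take part in DNA repair and in active DNA demethylation. Their transcripts are short-lived and respond to different signals, with GADD45A best known as a target of p53 and of the integrated stress response and GADD45B as a target of NF-kappaB and TGF-beta. GADD45GIP1 (also called CRIF1) carries the family name because it binds GADD45 proteins. It is not a relative of the other members, and works mainly in the large subunit of the mitochondrial ribosome.

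The samples were 4 cultures of LN-229, a long-established line grown from a human glioblastoma, on 1 Affymetrix 3' expression array each. The control group was 2 cultures without treatment, and the induced group was 2 cultures given doxycycline for 48 h to express WIF1, which is secreted and captures WNT ligands outside the cell. The labels call the replicates biological, and do not say whether the inducible cells are 1 clone or whether the control cells carry the WIF1 construct. Cells given the drug but lacking the WIF1 construct were not among the 4 arrays, so doxycycline and WIF1 cannot be told apart. All values are log2 intensities, and the number of arrays, 2 in each group, limits the precision.

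Array medians lay between 6.15 and 6.19. The single WIF1 probe set was near the array's floor, at 2.98 and 2.90 without induction and 2.93 and 3.03 with it, so these arrays do not show WIF1 induction, and induced means labelled so throughout. Of 9 glioma and astroglial markers 8 had means of at least 6.16, the median over probe sets, among them VIM, NES, SOX2 and S100B, while the astrocyte filament gene GFAP was below it at 5.66. Among other cell types, means of at least 6.16 were seen for 4 of 5 neuron, 1 of 4 oligodendrocyte and 1 of 4 leukocyte markers. They were also seen for 3 of 5 endothelial and 2 of 5 epithelial markers. These included CD3E (6.72) of leukocytes, PECAM1 (6.91), CLDN5 (6.86) and VWF (6.50) of endothelium, and CLDN4 (6.39) and KRT5 (6.23) of epithelium. In the same 3 lists PTPRC (3.79), CDH5 (3.98) and EPCAM (3.22) were dim. The summed signal of 5 neuron markers was 1193 and 1265 without induction against 1329 and 1426 with it. These markers had no common direction. SYT1 differed by 0.35 (SE 0.065), SNAP25 by 0.11, RBFOX3 by 0.03, GAD1 by -0.01 and STMN2 by -0.18 (SE 0.14). The summed signal of 4 oligodendrocyte markers was 332 to 364 against 304 to 317, and that of 5 epithelial markers 202 to 213 against 194 and 194. That of the 9 glioma and astroglial markers was 34290 to 35020 against 33180 to 33220. Among those whose groups were apart, FABP7 differed by -0.19, SOX2 by -0.15, S100B by -0.12, VIM by -0.06 and EGFR by 0.14. The leukocyte and endothelial sums overlapped between the groups. The part of these shifts in the values below was not tested. The 3' minus 5' log2 signal of the ACTB control probe sets was -0.036 and 0.021 on the control arrays, 0.033 and 0.11 on the induced ones, and that of GAPDH was -0.067 and -0.069 against -0.043 and -0.047. Where the member probe sets lie along their transcripts is not known here, and the part of this shift in their values was not tested.

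GADD45A and GADD45B had higher signals in the arrays labelled induced, GADD45G had a slightly lower signal, and the brightest GADD45GIP1 probe set differed by less than its spread between replicates. In bulk RNA, more cells with a transcript and more of it per cell cannot be told apart. Over the 9 probe sets, 6 had both induced arrays above both controls (all of GADD45A and GADD45B, and 1 of GADD45GIP1), 1 had both below, and 2 overlapped. Among all probe sets 17.9% had both induced arrays above both controls and 23.5% had both below. Since this contrast was in view when the family was chosen, nothing is read from the count. At an adjusted p under 0.05 limma called 0% of all probe sets (0 of 54613), and at an unadjusted p under 0.05 it found 2593 higher (4.75%) and 2876 lower (5.27%), a split that became 3477 and 1869 with each array centred on its median.

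**Figure D1:**
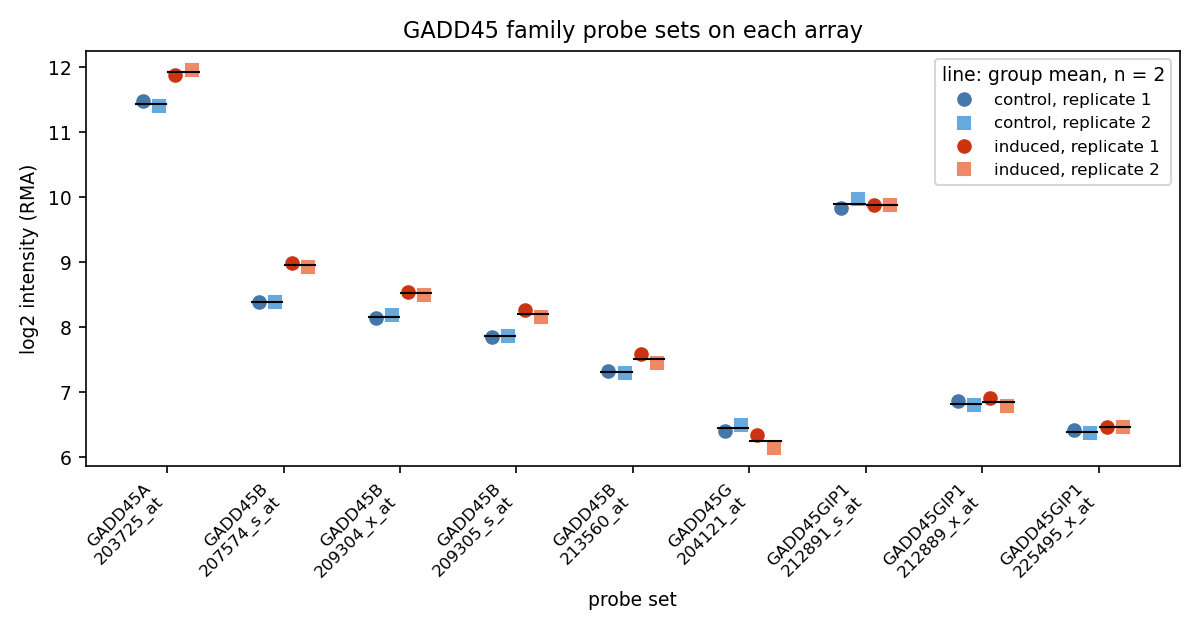
Log2 intensity (y axis) of each GADD45 family probe set (x axis) on each of the 4 arrays, with circles for replicate 1, squares for replicate 2, blue for control and red for induced, and a line at each group mean (n = 2). The induced points of GADD45A and of all 4 GADD45B probe sets lie above both control points, and those of the brightest GADD45GIP1 probe set lie between its controls. Heights of different probe sets cannot be compared as amounts of RNA.

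GADD45A, the founding member of the family, was read by the probe set 203725_at, which was bright, at the 97.9 percentile of all probe set means. Without induction it stood at 11.48 and 11.40, and with it at 11.88 and 11.96. The lower induced array was 0.40 above the higher control, while arrays of the same group were at most 0.08 apart. The mean difference was 0.48 (SE 0.045, n = 2 per group), which is 1.40-fold. With any 1 array left out it stayed between 0.44 and 0.52. Of all probe sets, 0.172% had a difference at least as high. That share gives a rank and no test, since the difference was in view when the family was chosen. No second probe set read this gene, so the value has no check within the array.

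GADD45B was read by 4 probe sets, and they agreed in direction but not in size. The brightest, 207574_s_at, stood at 8.39 on both control arrays and at 8.98 and 8.92 on the induced arrays, a mean difference of 0.56 (SE 0.053) or 1.47-fold. Its induced arrays stood 0.53 above the controls, against a gap within a group of at most 0.07. A difference at least as high was held by 0.0714% of all probe sets, again a rank and no test. The next probe set, 209304_x_at, whose suffix marks probes that may bind other transcripts too, stood at 8.14 and 8.18 without induction and at 8.54 and 8.50 with it, a mean difference of 0.36 (SE 0.056). The groups were again apart, here by 0.32.

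The third GADD45B probe set, 209305_s_at, stood at 7.85 and 7.87 without induction and at 8.26 and 8.16 with it, a mean difference of 0.35 (SE 0.064). The dimmest, 213560_at, was at 7.33 and 7.29 against 7.58 and 7.44, a difference of 0.20 (SE 0.075) or 1.15-fold. In this last set the gap between groups, 0.12, was smaller than the 0.14 between the induced arrays, and the difference was 0.13 without the first induced array and 0.27 without the second. In every GADD45B probe set the first induced array was the higher of the pair, whereas for GADD45A it was the lower. The order of the differences was that of the brightness of the probe sets. Averaged over its 4 probe sets GADD45B differed by 0.37 (SE 0.052), so the size given for this gene depends on the probe set by more than 1.5 times.

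**Figure D2:**
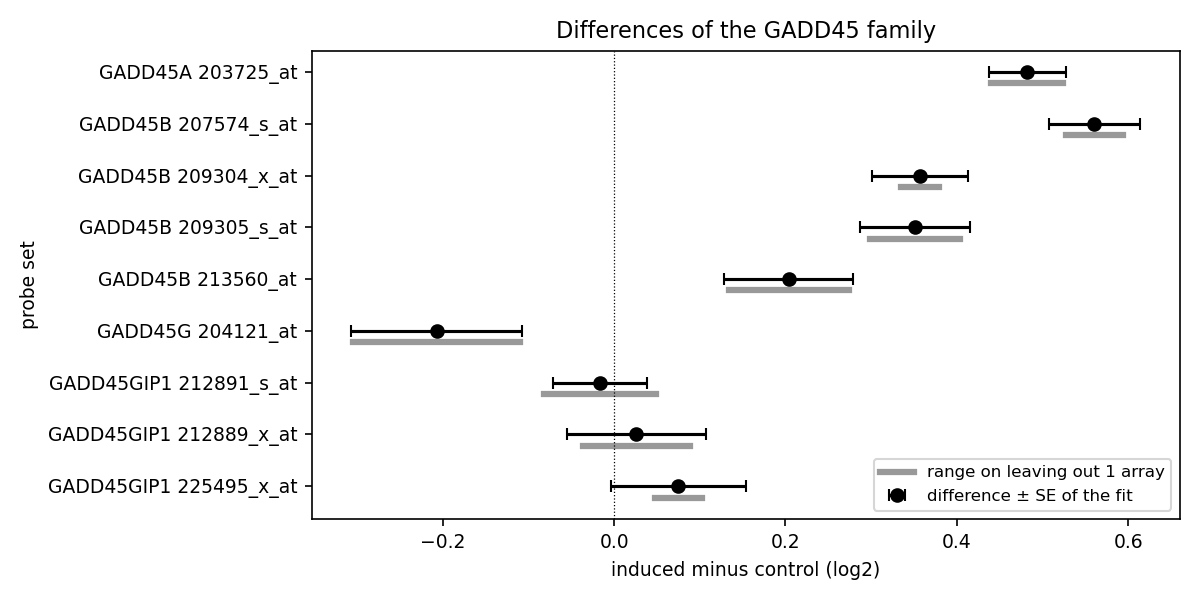
Induced minus control difference in log2 units (x axis) for each GADD45 family probe set (y axis), with the SE of the fit as error bars and a grey bar for the range on leaving out 1 array. The GADD45A and GADD45B ranges lie above 0, from 0.13 for 213560_at to 0.59 for 207574_s_at, the GADD45G range lies below 0, and 2 of the 3 GADD45GIP1 ranges cross 0.

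GADD45G, the third relative, was read by 204121_at, whose mean of 6.35 lay close to the median of all probe sets. It stood at 6.40 and 6.50 without induction and at 6.34 and 6.15 with it, a mean difference of -0.21 (SE 0.10). Both induced arrays were below both controls, but by 0.06, which is less than the 0.20 between the induced arrays. The difference was -0.11 without the second induced array and -0.30 without the first, so its size rested on which induced culture was used.

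GADD45GIP1 gave no common direction. Its bright probe set 212891_s_at stood at 9.83 and 9.96 without induction and at 9.88 and 9.88 with it, a mean difference of -0.02 (SE 0.055). Both induced arrays lay between the controls. The probe set 212889_x_at differed by 0.03 (SE 0.081), from 6.86 and 6.79 without induction and 6.91 and 6.79 with it, and these groups overlapped too. In 225495_x_at the groups did not overlap, at 6.42 and 6.36 against 6.46 and 6.47, but the difference of 0.07 was within its SE of 0.079. Leaving out 1 array gave -0.08 to 0.05 for the bright probe set.

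The promoter set used held no GADD45A entry, so that member is absent from this comparison. The stretches before the start sites of GADD45B and GADD45G are shown because these relatives differed in sign on the arrays. They are the 250 bases upstream of each RefSeq start (GRCh38.p14), chr19:2475877-2476126 on the plus strand and chr9:89604762-89605011 on the plus strand, printed 5′ to 3′ with matches to any of 10 motifs in capitals.
GADD45B: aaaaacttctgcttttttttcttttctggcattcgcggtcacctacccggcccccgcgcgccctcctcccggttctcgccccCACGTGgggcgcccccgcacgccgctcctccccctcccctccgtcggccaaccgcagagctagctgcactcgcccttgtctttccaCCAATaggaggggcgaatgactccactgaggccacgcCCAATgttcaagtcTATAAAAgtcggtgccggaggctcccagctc
GADD45G: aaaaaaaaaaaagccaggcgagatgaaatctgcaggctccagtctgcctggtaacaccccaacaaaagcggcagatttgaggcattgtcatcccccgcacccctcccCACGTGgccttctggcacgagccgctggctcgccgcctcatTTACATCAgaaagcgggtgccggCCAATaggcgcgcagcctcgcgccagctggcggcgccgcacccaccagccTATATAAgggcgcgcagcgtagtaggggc

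Both upstream stretches were rich in G and C, 63.2% for GADD45B and 61.6% for GADD45G, against 50.4% for GADD45GIP1. The motifs were searched on both strands, with N for any base, and the share of all 35116 RefSeq promoter windows of this length that hold each one is given beside it. The TATA box, searched as TATANAA, began 31 bases before the start of GADD45B and 29 bases before that of GADD45G (8.41% of windows). The CCAAT box, spelled by its name, was matched 82 and 45 bases before the GADD45B start and 79 bases before the GADD45G start (32% of windows). The E-box, a site for MYC and related factors searched as CACGTG, lay 168 bases before the GADD45B start and 143 bases before the GADD45G start (6.34%).

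Of these motifs the C/EBP-ATF element, bound by ATF4 with a C/EBP partner and searched as TGATGNAA, was the one matched in GADD45G and not in GADD45B. It began 102 bases before the GADD45G start and is held by 3.14% of windows. In GADD45GIP1 a TATA box was matched 138 bases before the start and a GC box, searched as GGGCGG, 113 bases before it (42.6% of windows). The AP-1 site of JUN and FOS proteins, searched as TGANTCA, was matched in 0 of the 3 members and is held by 6.57% of windows. The cAMP response element, searched as TGACGTCA, was matched in 0 of them as well (1.65% of windows). The same held for the NF-kappaB site searched as GGGANTTCC (1.59%). For the TEAD site of YAP and TAZ, searched as GGAATG, the count was 0 against 11.9% of windows. For the FOXO site, searched as GTAAACA, it was 0 against 2.98%. The searches did not overlap in their matches. A match is a run of letters, not a shown binding site, and a missing one concerns this window alone.

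The genes around the family were taken in 6 lists, with 88 of 99 listed genes measured and each read by its brightest probe set. Over all probe sets limma called 0 of these 88 at an adjusted p under 0.05, where it called 0% of 19775 genes. At an unadjusted p under 0.05, 6.48% of all genes were higher and 4.73% lower, which is also the background for each list below. Of the 88 listed genes, 14 were higher and 5 lower. These counts depended on single arrays, with 8 higher and 1 lower without the second control array and 8 higher and 2 lower without the second induced array. Without the first control array they were 12 and 2, and without the first induced array 13 and 7.

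Among 24 measured regulators of GADD45 transcription, 4 were higher and 0 lower at p under 0.05 before adjustment, with a median difference of 0.06 against 0.00 for all genes. The 4 are factors of the ATF and C/EBP families. ATF3, a stress-induced repressor and activator, stood at 8.84 and 8.86 without induction and at 9.47 and 9.36 with it, a mean difference of 0.57 (SE 0.055, limma adjusted p = 0.167). Its other 2 probe sets gave 0.15 and 0.32.

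DDIT3 (CHOP), which acts downstream of ATF4, was at 9.04 and 9.11 against 9.53 and 9.59, a difference of 0.48 (SE 0.052, limma adjusted p = 0.192). CEBPB differed by 0.17 (SE 0.043) and ATF4 by 0.10 (SE 0.035), each with an adjusted p of 0.472. Without the second induced array ATF4 differed by 0.07. In all 4 genes both induced arrays were above both controls. The values of ATF3 and DDIT3 were known when the list was drawn up and are no separate evidence. Across 11 alternative settings the adjusted p ran from 0.0475 to 0.901 for ATF3 and from 0.0481 to 0.901 for DDIT3.

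The other 20 regulators ran from -0.11 to 0.18, with 0 at p under 0.05 before adjustment. The highest was ZNF350, with an SE of 0.089 and -0.17 from its other probe set. FOXO3, a stress-activated activator of GADD45A, differed by 0.09 (SE 0.053), BRCA1 by -0.01 (SE 0.051) and MYC, which represses GADD45A, by 0.00 (SE 0.048). The NF-kappaB subunits RELA and NFKB1, upstream of GADD45B, differed by 0.10 (SE 0.047) and -0.03 (SE 0.048), and SMAD3 of the TGF-beta pathway by -0.01 (SE 0.049). The second RELA probe set gave -0.12 and the second of BRCA1 -0.11. The other SMAD3 probe sets ran from -0.19 to -0.10, and those of FOXO3 from -0.04 to 0.02.

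GADD45 transcripts are controlled by nonsense-mediated decay and by RNA-binding proteins. The list holds factors of mRNA decay and of mRNA stability together, so its median does not show a shift of either kind. Of 11 measured factors, 2 were higher and 1 lower at p under 0.05 before adjustment, with a median of 0.10. UPF2, a core decay factor, stood at 8.86 and 8.74 without induction and at 8.91 and 9.04 with it, a mean difference of 0.17 (SE 0.070, limma adjusted p = 0.490), and 0.11 without the second array of either group. HNRNPD (AUF1), which binds GADD45A mRNA, differed by 0.10 (SE 0.027), but its 8 other probe sets ran from -0.19 to 0.42. The endonuclease SMG6 differed by -0.24 (SE 0.098) and its other probe set by 0.28, so the gene has no direction here. The higher count was 1 without the second array of either group, without the first control array it was 3, and the lower count was 0 on leaving out any 1 array. NCL (nucleolin), the fourth gene by p, differed by 0.10 (SE 0.051), with 0.05 without the second array of either group and 0.16 without the first of either, and the decay helicase UPF1 by -0.05 (SE 0.053).

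The list of the MTK1, p38 and JNK branch holds kinases together with the phosphatases DUSP1 and DUSP10. At p under 0.05 before adjustment, 6.48% of all genes were higher and 4.73% lower. In this list 4 of 15 measured genes were higher and 0 lower, with a median of 0.00. Without the first control, second control or second induced array this count was 2. MAP3K4, the kinase the family binds directly, stood at 9.23 and 9.28 without induction and at 9.10 and 9.18 with it, a mean difference of -0.11 (SE 0.054, limma adjusted p = 0.531). Its other probe set gave -0.004. ATF2, a transcription factor phosphorylated by p38 and JNK, was at 8.95 and 8.94 against 9.24 and 9.22, a difference of 0.28 (SE 0.047, limma adjusted p = 0.413), while its other 2 probe sets gave -0.01 and 0.04. The JNK gene MAPK9 differed by 0.20 (SE 0.049), with -0.21 and -0.14 from its other probe sets. JUN differed by 0.16 (SE 0.063) and the phosphatase DUSP1 by 0.12 (SE 0.048), with adjusted p values of 0.489 and 0.490. The other 3 probe sets of JUN ran from -0.05 to 0.26, and those of DUSP1 gave -0.05 and -0.03. JUN differed by 0.10 without the second control array and by 0.08 without the second induced array.

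Of 12 cell cycle partners and genes of the switch into mitosis, 1 was higher and 3 lower at p under 0.05 before adjustment, with a median of -0.04. PCNA, which the family binds at replication forks, stood at 12.76 and 12.75 without induction and at 12.90 and 12.90 with it, a mean difference of 0.14 (SE 0.026, limma adjusted p = 0.444). The CDK inhibitor CDKN1A, another binding partner and a p53 target, was at 10.43 and 10.48 against 10.36 and 10.30, a difference of -0.12 (SE 0.043, limma adjusted p = 0.476). The groups of both genes were apart, in opposite directions.

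The phosphatases that activate CDK1, CDC25B and CDC25C, differed by -0.14 (SE 0.038) and -0.25 (SE 0.083), each with an adjusted p of 0.472. Without the second induced array CDC25C differed by -0.14, and its other 2 probe sets gave -0.10 and -0.06. CDK1 and CCNB1, the complex the family dissociates, differed by 0.02 (SE 0.046) and 0.04 (SE 0.067). The lower count was 0 without the second control array, 1 without the first control or the second induced array and 5 without the first induced array.

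Among 15 measured genes of DNA demethylation and excision repair, 3 were higher and 1 lower at p under 0.05 before adjustment, with a median of 0.00. Leaving out the second control or either induced array took the higher count to 1. TET1, which oxidises methylcytosine, stood at 7.01 and 7.00 without induction and at 6.60 and 6.72 with it, a mean difference of -0.34 (SE 0.078, limma adjusted p = 0.472), while the second TET1 probe set gave 0.17. ERCC4, which encodes the repair nuclease subunit XPF, differed by 0.26 (SE 0.058), with -0.19 from its other probe set. XPA differed by 0.14 (SE 0.055). TDG, the glycosylase that GADD45A works with, differed by 0.14 (SE 0.056) and by 0.00 in its other probe set, and by 0.07 without the second control array. TAF12 and ING1, through which GADD45A is brought to promoters, differed by -0.13 (SE 0.053) and -0.08 (SE 0.047).

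Of 12 partners of GADD45GIP1, mostly proteins around the exit tunnel of the mitochondrial ribosome, 0 were higher and 0 lower at p under 0.05 before adjustment (adjusted count 0, limma), with differences from -0.09 to 0.08. The 4 of smallest p were MRPL47 at 0.08 (SE 0.034), CDK2 at -0.09 (SE 0.049), MRPL39 at -0.06 (SE 0.040) and OXA1L, which inserts newly made proteins into the inner mitochondrial membrane, at -0.07 (SE 0.044). These are the brightest probe sets, and the 11 others of the 12 genes ran from -0.16 to 0.22, with -0.08 for MRPL47 and 0.16 for MRPL39. Without the second induced array MRPL47 differed by 0.05, CDK2 by -0.04 and OXA1L by -0.03, and without the first CDK2 differed by -0.14, OXA1L by -0.10 and MRPL39 by -0.03. Without the first induced array 1 was higher and 1 lower.

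**Figure D3:**
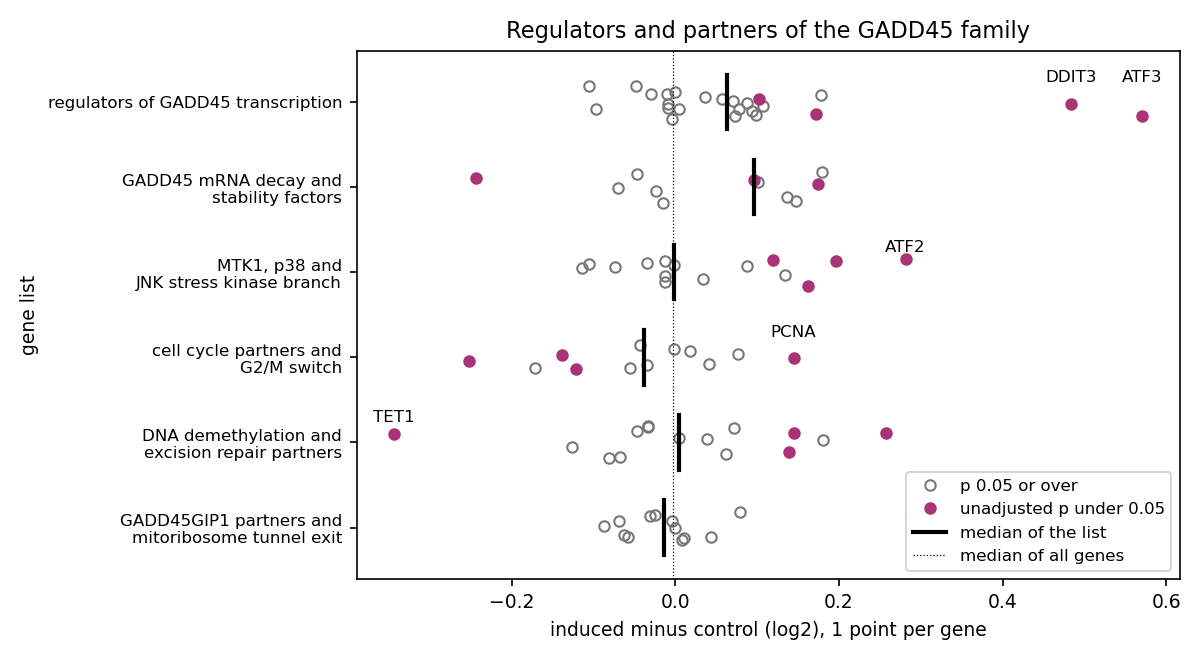
Induced minus control difference in log2 units (x axis) of each measured gene in the 6 lists of regulators and partners (y axis; vertical jitter has no meaning), filled where the unadjusted p was under 0.05. List medians (black bars) run from -0.04 to 0.10, and ATF3 and DDIT3 lie farthest to the right at 0.57 and 0.48.

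To place the profiles of the 2 higher members, the arrays were searched for genes with the most similar pattern. Likeness was the root mean square distance, over the 4 arrays, between log2 values centred on each gene's own mean, among 12718 genes whose mean was not below 6.16. The brightest GADD45B probe set was nearest to ATF3 (distance 0.016 log2 units), followed by F3 (0.029), AOX1 (0.040), SNAPC1 (0.053) and STC2 (0.056). F3 encodes tissue factor, AOX1 an aldehyde oxidase, SNAPC1 a subunit of the small nuclear RNA promoter complex and STC2 a secreted glycoprotein. Their differences ran from 0.46 for STC2 to 0.63 for SNAPC1. AOX1 had a second probe set at 0.17 and STC2 one at 0.32.

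GADD45A had other neighbours: TUBE1 (0.026), which encodes epsilon tubulin, DEPDC7 (0.027), ZNF542P (0.032), the angiogenic factor VEGFA (0.033) and the zinc finger gene ZNF283 (0.035). Their differences were 0.42 to 0.51. A second TUBE1 probe set gave 0.02, and the 3 others of VEGFA gave 0.02 to 0.13. The distance between GADD45A and GADD45B was 0.072 log2 units. The search left out the members, and the genes named here are those of smallest distance. Set beside them, 0.072 therefore does not show that the profiles of GADD45A and GADD45B are unlike. With 4 arrays such likeness mostly reflects a similar difference between groups. Under cyclic loess normalisation 3 of the 5 neighbours of GADD45A and 4 of the 5 of GADD45B were again among the nearest 5.

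**Figure D4:**
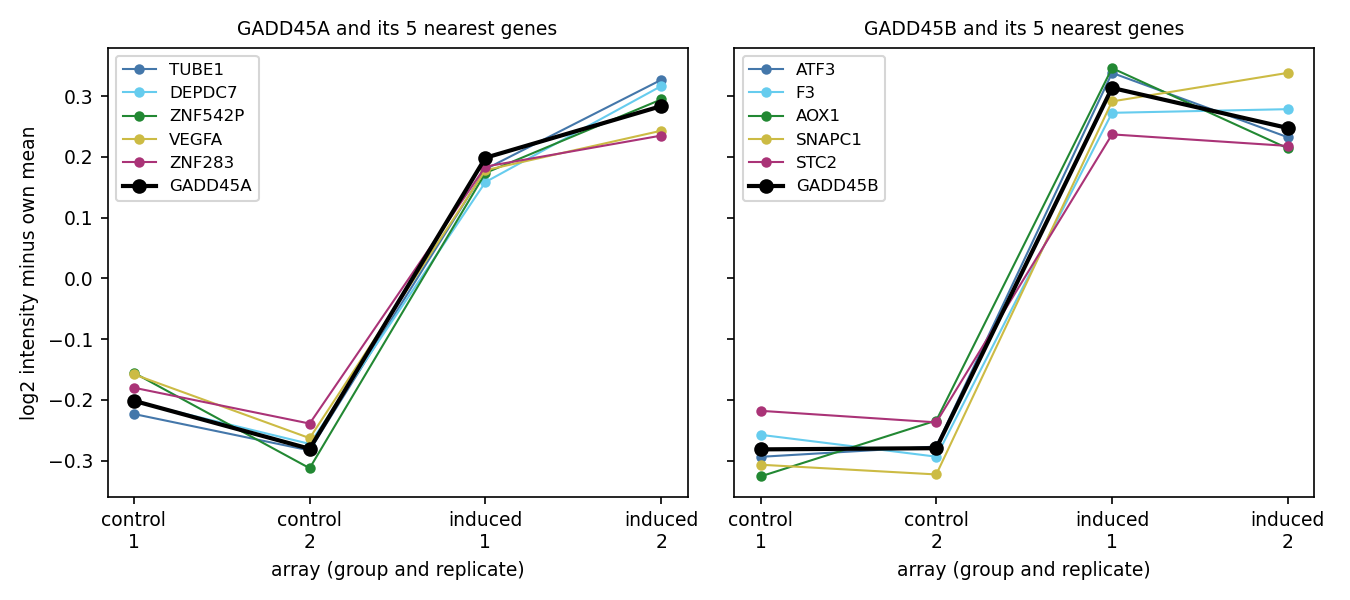
Log2 intensity minus each gene's own mean over the 4 arrays (y axis) on each array (x axis), for GADD45A (left, black) and the brightest GADD45B probe set (right, black) with their 5 nearest genes (colours). Lines only join points of 1 gene and replicate order has no meaning; every gene shown has both induced points above both control points.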

How the data were processed

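RNA of 4 LN-229 cultures was measured on Affymetrix arrays. The authors deposited log2 intensities for each probe set; RMA and affy are the tools that the submitters' processing notes name, and no version is given in the sources used here. RMA removes background, equalises the distributions of the arrays and combines the probes of a set, so a change shared by most genes would not be seen and low signals are compressed.

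Of 54675 rows, 62 control probe sets were left out. The platform annotation gives 41091 probe sets 1 symbol, 1801 several and 11721 none. Groups came from the titles. Differences were fitted with limma 3.58.1 in R 4.3.3 (lmFit, eBayes with an intensity trend, 2-sided, 6.27 degrees of freedom). The fit covered all 54613 probe sets with Benjamini-Hochberg adjustment, and SEs are from it. It was also run on simulated data with independent noise from the fitted variances and no shifts between arrays. Such a run cannot show how the fit does on these 4 arrays. A gene was read by its probe set of highest mean.

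The members and lists were chosen with earlier results of these data known, and the motifs after the promoters had been seen. Named genes were the members, WIF1, cell markers, up to 4 genes per list of smallest p with a mean at or above 6.16, and the 5 nearest genes. Other list members were chosen after their values were seen. RefSeq promoters (GRCh38.p14) were matched for 3 of 4 members by symbol, with none for GADD45A. The alternatives tried were the replicate number as a block, eBayes without the trend or robust, a filter on dim probe sets, centred arrays, cyclic loess, averaged probe sets, an adjusted p under 0.1 and leaving out each array.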

Additional observations from a re-analysis of the deposited data

Results flagged for a closer look

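Control probe sets outside the comparison differed between the groups. The 3' minus 5' log2 signal of the induced arrays lay above that of both controls for ACTB, by 0.0772 on average, and for GAPDH, by 0.0233. For ACTB the nearest arrays of the groups were 0.012 apart, less than the 0.057 between the controls and the 0.074 between the induced arrays. For GAPDH they were 0.020 apart, more than the 0.0016 and 0.0041 within the groups. Its part in the GADD45A and GADD45B differences was not tested.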

How the results depend on the processing

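The directions of GADD45A, all 4 GADD45B probe sets and GADD45G were the same in each of 7 alternatives (8 for 207574_s_at), with differences of 0.44 to 0.52 for GADD45A, 0.37 to 0.59 for 207574_s_at and -0.30 to -0.11 for GADD45G. The 0.37 is the mean over the GADD45B probe sets. In GADD45A, GADD45B and GADD45G both induced arrays lay on 1 side of both controls, so leaving out 1 array could not reverse a sign. The replicate block could not either. Of the alternatives counted, only centring, cyclic loess and, for 207574_s_at, averaging could have done so. For the GADD45GIP1 probe sets 212891_s_at and 212889_x_at the sign held in 5 of 8 and 5 of 7 alternatives. Probe sets called at an adjusted p under 0.05 were 0 in the main setting, 2 with robust eBayes, 5 with each array centred on its median, 11 after cyclic loess, and 9 genes with averaged probe sets; at an adjusted p under 0.1 they were 2. Of the listed regulators of GADD45 transcription 1 was called after cyclic loess (ATF3) and 1 with averaged probe sets (DDIT3). At an unadjusted p under 0.05, centring turned 2593 higher and 2876 lower into 3477 and 1869, and without the second control array 1003 and 1135 stood there, without the second induced array 1271 and 1353. Among the 88 listed genes, 14 higher and 5 lower became 5 and 3 without the trend, 16 and 3 after centring and 8 and 4 with averaged probe sets. The labels do not say whether cultures with the same replicate number were handled together. Same-numbered deviations correlated at 0.056, which does not settle it. With the replicate block 0 probe sets were called, and 8 listed genes were higher and 4 lower; member differences do not move under it. The causes were not tested. Signal over background could not be measured without scanner files.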
